A study of Homo sapiens with 5 samples.

Results

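Expression of 10 genes of the vascular endothelial growth factor (VEGF) system and the hypoxia response was followed in MDA-MB-231 cells exposed to SAHA. The genes were the ligands VEGFA, VEGFB and VEGFC, the receptors KDR and FLT1, the co-receptors NRP1 and NRP2, the secreted protein ANGPTL4, and the hypoxia-inducible factors HIF1A and EPAS1. They were taken as the probe sets that the platform annotation gives to these symbols alone, 34 of 54613 once array controls were set aside. All 10 genes were measured among 19775 genes, each represented by its brightest probe set. MDA-MB-231 is an established line from a human breast carcinoma with mesenchymal features, and SAHA (vorinostat) inhibits histone deacetylases, enzymes that take acetyl groups off histones. Total RNA was measured on 5 single-colour oligonucleotide arrays, 2 of cells given 2 uM SAHA and 3 of cells given the vehicle DMSO, all collected after 30 h. A transfection named in the extraction text appears in no other label. The labels do not say that replicates were separate cultures, and p-values here reflect the spread among arrays, which may be technical.

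VEGF ligands are secreted proteins that bind tyrosine kinase receptors, mainly on endothelial cells, and drive vessel growth and permeability. Neuropilins strengthen that binding and also serve as receptors for class 3 semaphorins. When oxygen is low, HIF1A and EPAS1 (the alpha subunits HIF-1alpha and HIF-2alpha) escape hydroxylation and degradation, pair with ARNT and switch on genes that include VEGFA and ANGPTL4. HIF proteins are controlled mostly through their stability, which an mRNA array does not read.

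After SAHA, EPAS1 mRNA was 3.56-fold higher and KDR mRNA 2.20-fold higher, while NRP2 mRNA was 1.46-fold lower. The other 7 members, among them all 3 ligands and HIF1A, did not pass the test. This was 2 members called higher and 1 lower of 10, by limma with Benjamini-Hochberg adjustment over all genes at an adjusted p under 0.05. Of all 19775 genes, 14% were called higher and 15.6% lower, 29.6% in all, so the members' count is near that background. The arrays of the groups did not overlap for 4 members, 2 with SAHA above and 2 with SAHA below, against 48.1% of all genes. The median log2 fold was -0.03 over the members and -0.03 over all genes, and the median absolute log2 fold was 0.13 over the members and 0.15 over all genes. In bulk RNA, fewer cells with a transcript and less of it per cell cannot be told apart.

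**Figure D1:**
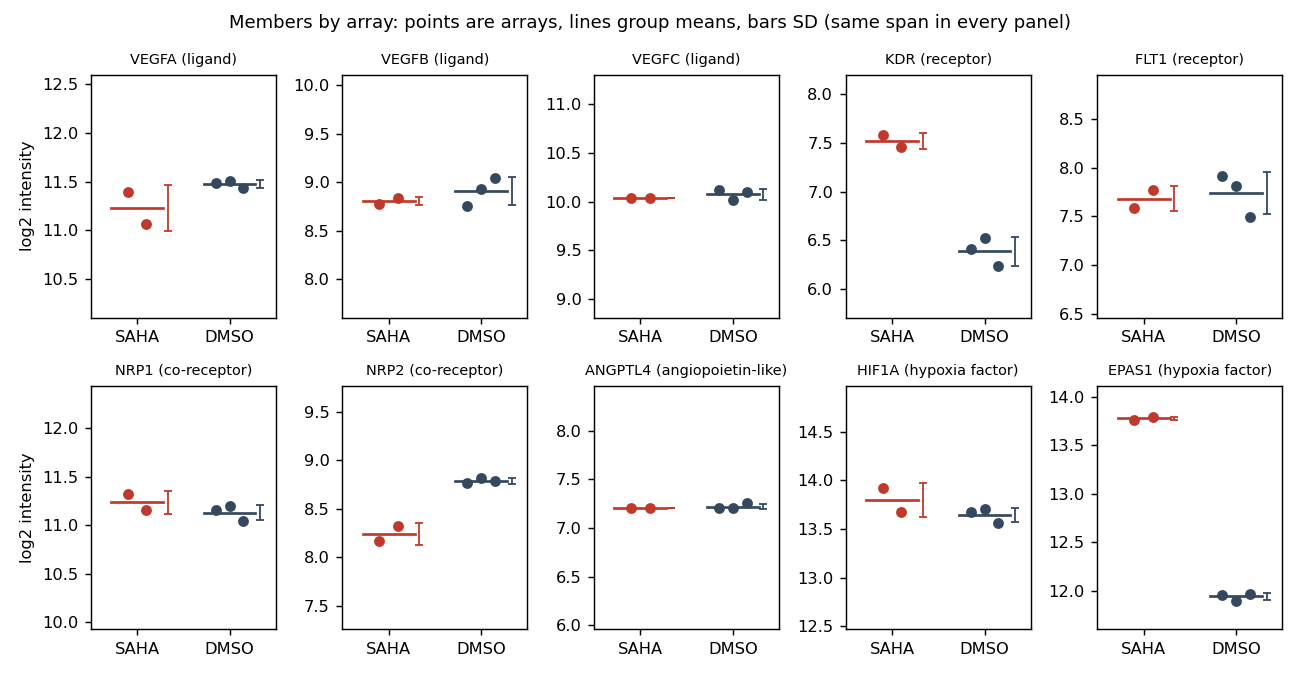
Log2 intensity of the 10 members on each array, with SAHA left of DMSO in every panel. Points are arrays, lines are group means, bars are the SD (n = 2 SAHA and n = 3 DMSO arrays), and every panel spans the same range. EPAS1 and KDR lie higher and NRP2 lower on both SAHA arrays, and the groups of 6 members overlap.

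The arrays were alike in overall brightness, with median intensities of 88.8 to 91.2. Across genes, which are not independent replicates, Pearson's r was 0.9972 between the SAHA arrays, 0.9981 to 0.9986 between DMSO arrays and 0.9791 to 0.9801 between groups. The array DMSO 1 stood apart in the 3' minus 5' difference of the ACTB control, at 3.29 on the log2 scale against 2.04 to 2.22 on the other 4 arrays. Without it, EPAS1 had a log2 fold of 1.84, KDR 1.15 and NRP2 -0.56, and all 3 stayed called. The 24 polyadenylated control RNA probe sets were higher on both SAHA arrays, by a median of 0.39 on the log2 scale. When arrays were centred on these controls, the median of all genes became -0.40 and that of the members -0.40. EPAS1 (1.46) and KDR (0.76) were still called higher there and NRP2 (-0.92) lower, and 6 members were called lower in all.

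Of 8 genes taken as markers of MDA-MB-231 cells, 7 lay above the array's median gene. VIM was among them, at a mean log2 intensity of 13.85 in SAHA and 13.97 in DMSO. The exception was SPARC (6.15 in SAHA and 6.14 in DMSO). Limma called 0 of these 8 higher and 2 lower, against 14% and 15.6% of all genes. The 2 were AXL (-0.33 ± 0.06, SE; limma adjusted p = 0.0193) and MSN (-0.37 ± 0.06, SE; limma adjusted p = 0.0116). Neither call held with every array left out. The list's median log2 fold was -0.17. Both SAHA arrays lay below all DMSO arrays for 5 and above for 1, against 26% and 22.1% of all genes. Of 6 luminal breast genes that the line lacks or expresses little, 2 lay above the median gene, GATA3 (9.16 in SAHA and 9.41 in DMSO) and EPCAM (9.56 in SAHA and 10.28 in DMSO), both called lower. CDH1 (E-cadherin), on the same list, lay below the median gene and was called higher (1.64 ± 0.15, SE; limma adjusted p = 0.00259), with 1 of its 2 probe sets called and an average of 0.77.

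The starts of the genes that moved are shown with that of ANGPTL4, a known HIF target, because HIF dimers bind a short core, ACGTG or GCGTG, that can be looked for there. The sequences are from RefSeq (GRCh38.p14), 250 bases before to 50 after the gene's start, read 5' to 3' on the gene's strand. Capitals mark the core on either strand.
EPAS1: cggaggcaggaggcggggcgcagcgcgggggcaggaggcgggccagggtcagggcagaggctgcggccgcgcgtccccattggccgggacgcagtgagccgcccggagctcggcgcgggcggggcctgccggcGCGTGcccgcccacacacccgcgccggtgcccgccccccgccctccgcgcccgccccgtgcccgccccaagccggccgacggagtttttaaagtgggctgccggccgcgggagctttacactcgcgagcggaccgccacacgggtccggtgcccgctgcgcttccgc
KDR: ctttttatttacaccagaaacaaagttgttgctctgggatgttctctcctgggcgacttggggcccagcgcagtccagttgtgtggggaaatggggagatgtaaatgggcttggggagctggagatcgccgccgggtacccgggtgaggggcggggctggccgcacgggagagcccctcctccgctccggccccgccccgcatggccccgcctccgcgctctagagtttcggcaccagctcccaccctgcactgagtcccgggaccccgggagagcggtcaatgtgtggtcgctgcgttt
NRP2: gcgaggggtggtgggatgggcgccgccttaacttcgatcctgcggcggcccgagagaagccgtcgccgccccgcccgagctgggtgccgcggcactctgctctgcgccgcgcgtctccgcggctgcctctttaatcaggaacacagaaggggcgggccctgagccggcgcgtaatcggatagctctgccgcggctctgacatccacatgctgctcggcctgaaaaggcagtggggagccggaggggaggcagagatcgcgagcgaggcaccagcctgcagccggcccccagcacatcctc
ANGPTL4: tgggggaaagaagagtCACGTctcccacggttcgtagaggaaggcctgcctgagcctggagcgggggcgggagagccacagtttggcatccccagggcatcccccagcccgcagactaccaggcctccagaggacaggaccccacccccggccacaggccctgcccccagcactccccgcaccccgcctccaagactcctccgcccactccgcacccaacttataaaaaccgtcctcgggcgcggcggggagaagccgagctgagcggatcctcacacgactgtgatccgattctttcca

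These windows are chr2:46297157-46297456 (plus strand) for EPAS1, chr4:55125546-55125845 (minus) for KDR, chr2:205682251-205682550 (plus) for NRP2 and chr19:8363905-8364204 (plus) for ANGPTL4. EPAS1 held 1 core, GCGTG on the gene's strand, at position -117 from the gene's start. ANGPTL4 held 1 core, ACGTG on the opposite strand, at position -234. The KDR and NRP2 windows held no such letters. Promoter windows were at hand for 8 of the 10 members (9 windows, HIF1A having 2), and 6 of the 9 held a core. Of all 35116 windows of this length, 48.4% held one, so a match is common and is only a description. The EPAS1 window was 80.0% G or C with 47 CpG dinucleotides and the KDR window 65.0% with 22, against medians of 58.7% and 14 over all windows. NRP2, which fell, had 70.0% with 33. ANGPTL4 (66.3% with 20) and VEGFB (84.7% with 42), which did not pass, also lay above these medians. A rich window was therefore not particular to the genes that rose.

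The 3 ligands showed no change that passed the test. VEGFA, the main angiogenic ligand, had log2 intensities of 11.39 and 11.06 in SAHA, against 11.48, 11.51 and 11.43 in DMSO. Both SAHA arrays were below all DMSO arrays, SAHA 1 only narrowly. The log2 fold was -0.24 ± 0.11 (SE; limma adjusted p = 0.184), with a 95% confidence interval of -0.53 to 0.04. SAHA 2 carried most of it, since the log2 fold was -0.08 without SAHA 2 (limma adjusted p = 0.284) and -0.41 without SAHA 1 (limma adjusted p = 0.0275).

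VEGFA was read by 4 probe sets, all with a log2 fold below 0 (-0.39 to -0.02). SAHA lay below DMSO on 3 of the 4, against 21% of all probe sets (39.2% without overlap in either direction). In the fit over probe sets, 212171_x_at was the only one of the 4 called. It had log2 intensities of 9.35 and 9.42 in SAHA, against 9.66, 9.85 and 9.82 in DMSO. Its log2 fold was -0.39 ± 0.07 (SE; limma adjusted p = 0.0331), but the name marks it as a probe set that may share sequence with other transcripts. No VEGFA probe set remained when such probe sets were left out. With the 4 probe sets averaged, VEGFA was called lower at -0.23 (limma adjusted p = 0.0456).

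VEGFC, which acts mainly on lymphatic vessels, was steady at 10.04 and 10.04 in SAHA, against 10.12, 10.01 and 10.10 in DMSO. Its groups overlapped, and the difference was -0.04 ± 0.05 (SE; limma adjusted p = 0.612), with a 95% confidence interval of -0.17 to 0.09 on the log2 scale. VEGFB, a ligand of FLT1, had 8.78 and 8.83 in SAHA, against 8.76, 8.93 and 9.04 in DMSO. These groups overlapped as well (-0.10 ± 0.09, SE; limma adjusted p = 0.487; 95% confidence interval -0.35 to 0.15).

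Of the receptors, KDR passed the test and FLT1 did not. KDR (VEGF receptor 2), the main signalling receptor for VEGFA, had log2 intensities of 7.58 and 7.46 in SAHA, against 6.40, 6.52 and 6.23 in DMSO. The groups were far apart compared with the spread within either. The log2 fold was 1.14 ± 0.10 (SE; limma adjusted p = 0.00230), and it was 1.06 to 1.21 with each array left out in turn, always called. A single probe set, 203934_at, reads KDR, and its mean level was below the median gene of the array, at percentile 39.5. The files give no detection call for it.

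FLT1 (VEGF receptor 1), which binds VEGFA tightly but signals weakly, had 7.59 and 7.77 in SAHA, against 7.91, 7.81 and 7.49 in DMSO. SAHA values fell inside the DMSO range, at -0.06 ± 0.15 (SE; limma adjusted p = 0.805), with a 95% confidence interval of -0.44 to 0.33. Of the 6 FLT1 probe sets, limma called 0, 0 had an unadjusted p under 0.05, and log2 folds ran from -0.15 to 0.04. The other 5 were dim, with log2 intensities of 4.35 to 5.40 over all arrays. Which FLT1 isoform, membrane-bound or soluble, each probe set reads is not given in the annotation used here.

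KDR and FLT1 are used mainly by endothelial cells, so 10 endothelial markers were read beside them. Above the median gene lay 3 of them, ROBO4, ESAM and EGFL7 (percentiles 61.1, 56.9 and 52.1). The cadherin CDH5, the dimmest, had mean log2 intensities of 3.91 in SAHA and 3.96 in DMSO, near the bottom of the array (percentile 5.62), and EMCN 4.43 in SAHA and 4.35 in DMSO. The summed log2 level of the 10 markers was 10.52 to 10.56 in SAHA and 10.58 to 10.61 in DMSO. ESAM, an adhesion molecule, was called higher (0.73 ± 0.10, SE; limma adjusted p = 0.00758) and the receptor ROBO4 lower (-1.02 ± 0.11, SE; limma adjusted p = 0.00359). The other 8 did not pass. ROBO4 was -0.62 with its probe sets averaged. ESAM lost its call when either SAHA array was dropped (limma adjusted p = 0.0655 and 0.0696). The part of these markers in the receptor values was not tested.

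NRP2, which binds VEGFC as well as VEGFA, was the member that fell. It had log2 intensities of 8.16 and 8.32 in SAHA, against 8.76, 8.82 and 8.78 in DMSO. Every SAHA value lay below every DMSO value, and the log2 fold was -0.55 ± 0.06 (SE; limma adjusted p = 0.00413). It was called with each array left out in turn, at -0.62 to -0.47. NRP2 has 11 probe sets, of which 8 had a log2 fold below 0. Both SAHA arrays lay below all DMSO arrays on 5 of the 11, against 21% of all probe sets (39.2% without overlap in either direction). These 11 are repeated readings of 1 gene on the same arrays, not separate support. In the fit over probe sets, where 9.01% of all probe sets were called higher and 9.05% lower (18.1% in all), the brightest of the 11, 225566_at, was the only one to pass. The next brightest, 222877_at, had 7.24 and 7.16 in SAHA, against 7.77, 7.45 and 7.57 in DMSO (-0.40 ± 0.11, SE; limma adjusted p = 0.0812). With all 11 averaged, the log2 fold was -0.19 and still called (limma adjusted p = 0.0227).

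NRP1, the co-receptor used mainly with VEGFA, had 11.32 and 11.15 in SAHA, against 11.16, 11.19 and 11.04 in DMSO. The groups overlapped, at 0.11 ± 0.08 (SE; limma adjusted p = 0.380), with a 95% confidence interval of -0.10 to 0.31. Its 2 bright probe sets had folds of opposite sign, 0.11 for 212298_at and -0.13 for 210510_s_at, and limma called 0 of its 4 probe sets (0 with an unadjusted p under 0.05).

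**Figure D2:**
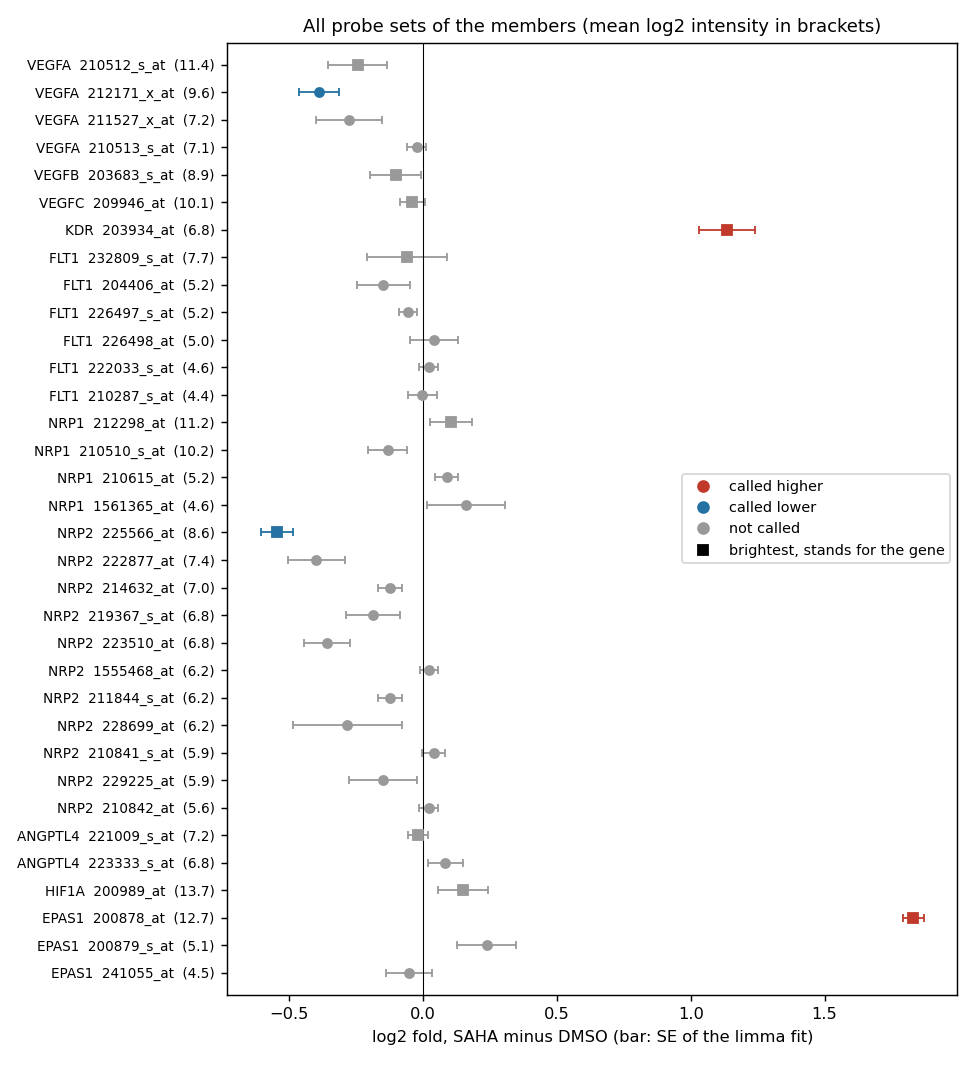
Log2 fold, SAHA minus DMSO, of the 34 probe sets of the members, with the SE of the limma fit over all probe sets as bars. Squares are the brightest probe set of each gene, and the mean log2 intensity is in brackets. KDR 203934_at and EPAS1 200878_at are coloured as called higher, NRP2 225566_at and VEGFA 212171_x_at as called lower, and the other 30 are grey.

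ANGPTL4, a secreted inhibitor of lipoprotein lipase that HIF and PPAR factors are known to induce, did not pass. It had 7.20 and 7.20 in SAHA, against 7.20, 7.20 and 7.25 in DMSO. SAHA 2, DMSO 1 and DMSO 2 carried the same deposited value, and the spread of this gene is small. Its mean level was below the median gene of the array, at percentile 45.5, and no detection call is given for it. The log2 fold was -0.02 ± 0.04 (SE; limma adjusted p = 0.785) with a 95% confidence interval of -0.12 to 0.09. The second probe set, 223333_s_at, gave 0.08 ± 0.06 (SE; limma adjusted p = 0.447).

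The 2 hypoxia factors parted. EPAS1 had log2 intensities of 13.76 and 13.79 in SAHA, against 11.96, 11.90 and 11.97 in DMSO. The groups lay far apart, and arrays within each group were close together. The log2 fold was 1.83 ± 0.04 (SE; limma adjusted p = 0.000401), the largest of the 10 members, and it was 1.81 to 1.85 with each array left out in turn. It rests on 200878_at, which was bright (percentile 96.3 of genes). The other EPAS1 probe sets were dim and not called, 200879_s_at at 0.24 ± 0.11 (SE; limma adjusted p = 0.259) and 241055_at at -0.05 ± 0.08 (SE; limma adjusted p = 0.719). With the 3 averaged the log2 fold was 0.67, still called (limma adjusted p = 0.00124).

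HIF1A was among the brightest genes of the array (percentile 99.2), with 13.92 and 13.68 in SAHA, against 13.68, 13.70 and 13.57 in DMSO. The groups overlapped, and SAHA 1 was the highest array. The difference was 0.15 ± 0.09 (SE; limma adjusted p = 0.312), with a 95% confidence interval of -0.09 to 0.39.

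Differences between members on the same array do not move when an array is rescaled. EPAS1 minus HIF1A was -0.15 and 0.11 on the SAHA arrays, against -1.71, -1.80 and -1.59 on the DMSO arrays, a shift of 1.68. FLT1 minus KDR was 0.01 and 0.31 on the SAHA arrays, against 1.51, 1.29 and 1.26 on the DMSO arrays, a shift of -1.19. NRP2 minus NRP1 was -3.16 and -2.83 on the SAHA arrays, against -2.40, -2.38 and -2.26 on the DMSO arrays, a shift of -0.65. The groups did not overlap in these 3, each with an exact two-sided permutation p = 0.1, the smallest that 2 against 3 arrays allow (adjusted p = 0.2 over 6 differences). The design therefore cannot reach 0.05 with this test. The other 3 differences overlapped between groups, with shifts of 0.20 for VEGFC minus VEGFA, 0.14 for VEGFB minus VEGFA and 0.23 for ANGPTL4 minus VEGFA (exact permutation p = 0.2, 0.6 and 0.2, adjusted p = 0.24, 0.6 and 0.24). These differences compare how genes moved, and the levels of different probe sets are not comparable.

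**Figure D3:**
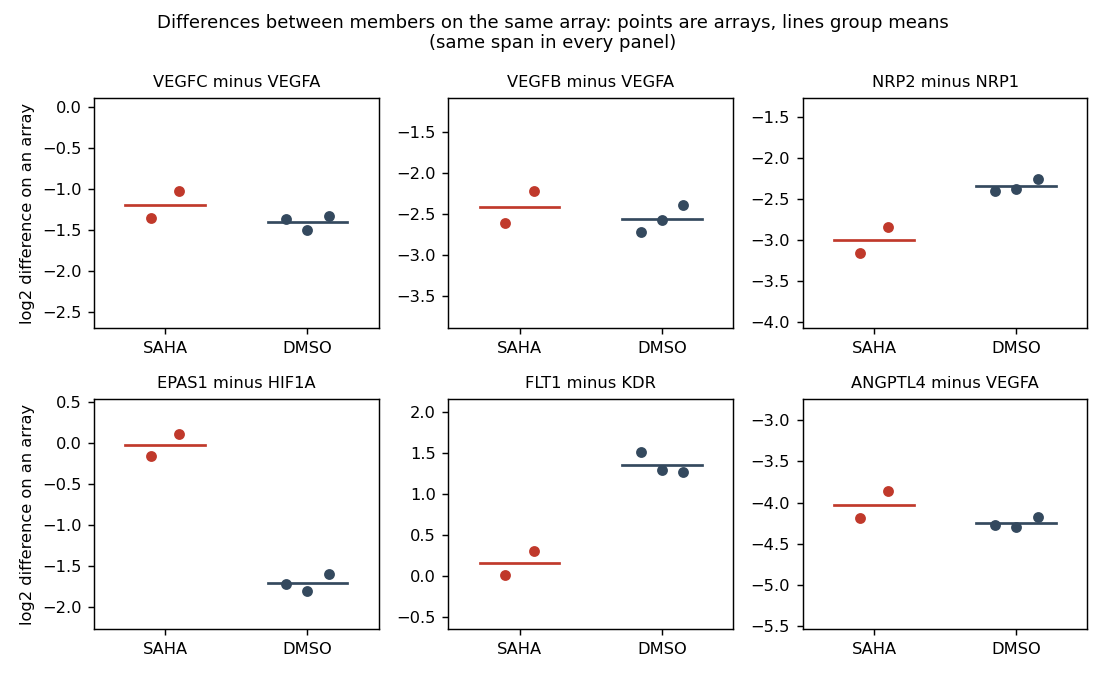
Log2 difference between a pair of members on each array, SAHA left of DMSO. Points are arrays (2 SAHA, 3 DMSO) and lines are group means. EPAS1 minus HIF1A is higher on both SAHA arrays, FLT1 minus KDR and NRP2 minus NRP1 are lower, and the other 3 overlap.

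Other genes of these pathways were read from 6 lists. Of genes that control HIF proteins, 15 were measured, and 3 were called higher and 2 lower, a count near the 14% and 15.6% of all genes. With probe sets averaged, 6 were called higher. With the brightest probe sets, their median log2 fold was 0.13, against -0.03 for all genes. CITED2, which competes with HIF for the coactivators CREBBP and EP300, rose 3.31-fold (1.73 ± 0.18, SE; limma adjusted p = 0.00331), and 2 of its 3 probe sets were called. EGLN3, a prolyl hydroxylase that marks HIF for degradation and is itself induced by HIF, rose 2.14-fold (1.10 ± 0.16, SE; limma adjusted p = 0.00891). EGLN3 was read by a probe set whose name marks possible shared sequence, and it was not measured without such probe sets. Dropping either SAHA 1 or SAHA 2 ended its call (limma adjusted p = 0.0900 and 0.0759), though the log2 fold was 1.08 and 1.11. The coactivator CREBBP fell (-0.93 ± 0.09, SE; limma adjusted p = 0.00251), and -0.47 was found with its 4 probe sets averaged. RBX1, a subunit of the ubiquitin ligase that degrades HIF, fell too (-0.91 ± 0.07, SE; limma adjusted p = 0.00159). ARNT2, a relative of ARNT, was called higher (0.58 ± 0.07, SE; limma adjusted p = 0.00567). ARNT itself (0.09 ± 0.08, SE; limma adjusted p = 0.464), the hydroxylase EGLN1 (0.14 ± 0.08, SE; limma adjusted p = 0.299) and VHL (-0.24 ± 0.18, SE; limma adjusted p = 0.391), which recognises hydroxylated HIF, did not pass.

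Of 28 measured genes known to be raised by HIF, 13 were called higher and 4 lower, against 14% and 15.6% of all genes, and their median log2 fold was 0.37. Both SAHA arrays lay above all DMSO arrays for 18 of the 28 and below for 5, against 22.1% and 26% of all genes. The largest were ALDOC, a glycolytic aldolase (2.84-fold), PPP1R3C, a glycogen-targeting phosphatase subunit (2.65-fold), SLC2A3, a glucose transporter (2.50-fold), and NDRG1 (2.39-fold), with limma adjusted p = 0.000483 to 0.00104. PPP1R3C had log2 intensities of 10.24 and 10.22 in SAHA, against 8.82, 8.80 and 8.86 in DMSO. NDRG1 had 13.10 and 13.09 in SAHA, against 11.76, 11.87 and 11.90 in DMSO. Also called higher were the MYC antagonist MXI1 (1.15), the vasodilator peptide ADM (0.77), ANKRD37 (0.72), the prolyl 4-hydroxylases P4HA2 (0.69) and P4HA1 (0.51), the sterol regulator INSIG2 (0.67), the mitophagy receptors BNIP3L (0.56) and BNIP3 (0.48) and the glucose transporter SLC2A1 (0.55). The genes called lower were DDIT4, an inhibitor of mTORC1 (-0.79 ± 0.05, SE; limma adjusted p = 0.00109), the collagen crosslinker LOX (-0.72 ± 0.13, SE; limma adjusted p = 0.0145), the repressor BHLHE40 (-0.32) and the carbonic anhydrase CA12 (-0.24). These 4 calls rest on probe sets whose names mark possible shared sequence, and so do the higher calls of NDRG1, SLC2A3, SLC2A1 and P4HA1. Without such probe sets, 11 of the 19 genes still measured were called higher and limma called 0 lower (0 at an unadjusted p under 0.05). DDIT4 and NDRG1, each read by 1 such probe set, were not measured in that setting, so the 0 partly reflects genes left out. The glycolytic genes LDHA (0.09), ENO1 (-0.01) and PGK1 (0.26) did not pass (limma adjusted p = 0.334, 0.889 and 0.134). Leaving out single arrays gave 10 to 14 called higher and 1 to 3 lower (1 without DMSO 2 or DMSO 3, 2 without SAHA 2). With arrays centred on polyadenylated controls, 9 were called higher and 9 lower, and the median was 0.00075 against -0.40 for all genes.

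**Figure D4:**
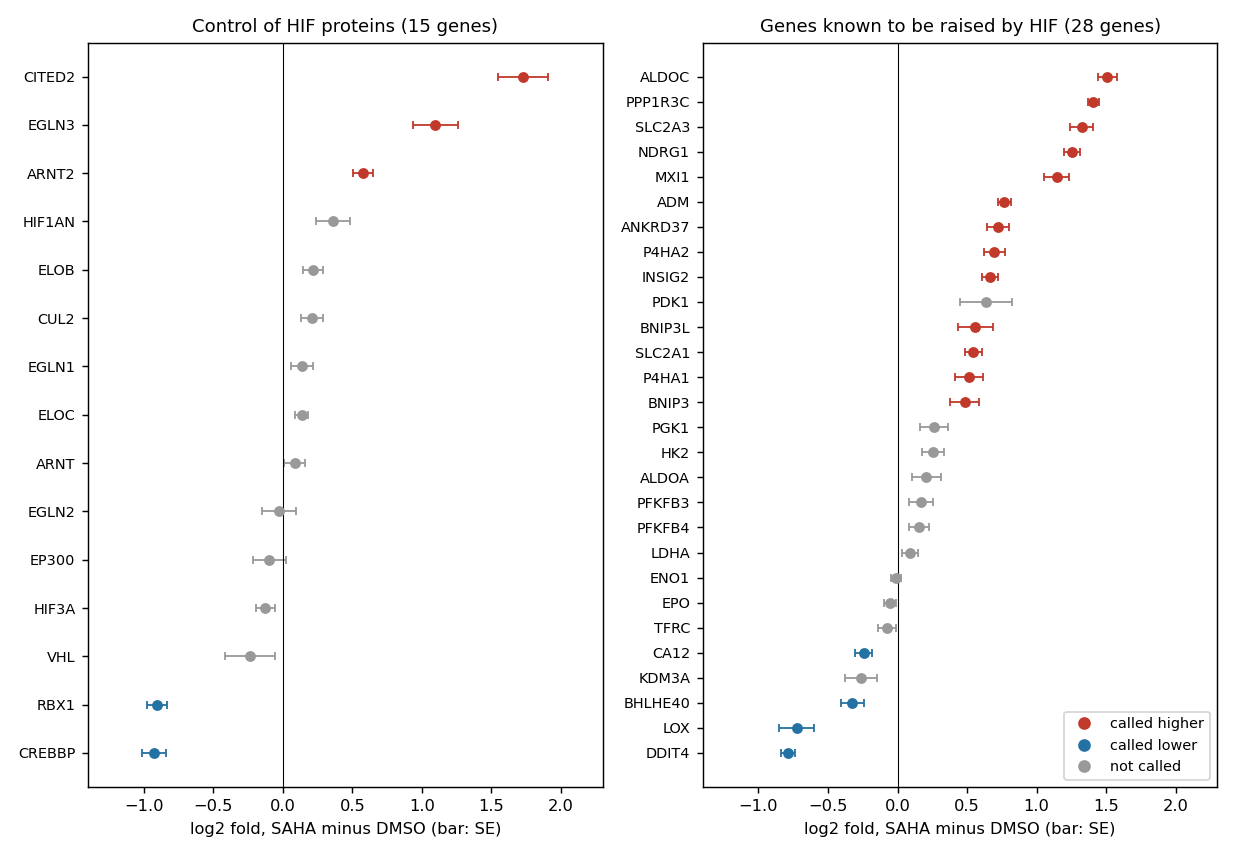
Log2 fold, SAHA minus DMSO, with its SE, for 15 genes that control HIF proteins and 28 genes known to be raised by HIF. Colours show genes called higher (3 and 13), called lower (2 and 4) or not called.

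Among other genes of the VEGF family, CCBE1 and ADAMTS3, which take part in processing VEGFC into its active form, rose, while VEGFC did not pass. CCBE1, which recruits the protease, had 9.76 and 9.69 in SAHA, against 8.34, 8.41 and 8.38 in DMSO, a 2.55-fold rise (1.35 ± 0.05, SE; limma adjusted p = 0.000491) that was called in 3 of its 3 probe sets. ADAMTS3, the protease itself, had 8.09 and 7.96 in SAHA, against 7.18, 6.89 and 6.85 in DMSO, a 2.07-fold rise (1.05 ± 0.12, SE; limma adjusted p = 0.00431). ADAMTS3 was read by 1 probe set, at a mean level below the median gene (percentile 47.4). Its call ended without SAHA 1 (0.99, limma adjusted p = 0.0577). The ligand PGF (0.14 ± 0.07, SE; limma adjusted p = 0.220) and the VEGFC receptor FLT4 (0.02 ± 0.04, SE; limma adjusted p = 0.799) did not pass. By limma, 2 of 4 were thus called higher and 0 lower, against 14% and 15.6% of all genes. The median was 0.60, which falls in the gap between PGF and ADAMTS3. VEGFD, also on this list, was not measured.

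The semaphorins and plexins that share the neuropilins gave no call. Of 11 measured, limma called 0, with 1 higher (SEMA3F, 0.16) and 1 lower (PLXND1, -0.15) at an unadjusted p under 0.05, and the median log2 fold was 0.05. The largest differences were in the ligand SEMA3A (-0.21 ± 0.12, SE; limma adjusted p = 0.286) and the plexin PLXNA4 (0.18 ± 0.09, SE; limma adjusted p = 0.240). Without SAHA 1, 1 of the list was called higher, and with arrays centred on polyadenylated controls 9 were called lower and PLXNA4 was -0.20.

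Genes around ANGPTL4 in lipid metabolism were read as well. Of 12 measured PPAR, RXR, PPAR target and ANGPTL genes, limma called 4 higher and 0 lower (2 lower at an unadjusted p under 0.05), against 14% and 15.6% of all genes, and the median was 0.13. PDK4, a kinase that shuts off pyruvate dehydrogenase, rose 2.75-fold (1.46 ± 0.14, SE; limma adjusted p = 0.00266), and CPT1A, which carries fatty acids into mitochondria, 1.93-fold (0.95 ± 0.09, SE; limma adjusted p = 0.00266). With probe sets averaged, CPT1A was 0.42 and PPARGC1A, described next, 0.50. PDK4 was dim, and 1 of its 3 probe sets passed (0.50 with all averaged). The coactivator PPARGC1A rose 2.01-fold (1.00 ± 0.16, SE; limma adjusted p = 0.0119), a call lost without SAHA 1, DMSO 2 or DMSO 3 (limma adjusted p = 0.0726, 0.0511 and 0.0648), and 1 of its 2 probe sets was called. The receptor PPARD gave 0.43 ± 0.06 (SE; limma adjusted p = 0.00669), but another of its 4 probe sets was called lower (-0.57), their average was 0.02, and the call ended without SAHA 1 (limma adjusted p = 0.0570). PPARG (-0.09 ± 0.07, SE; limma adjusted p = 0.429) and PLIN2 (-0.22 ± 0.07, SE; limma adjusted p = 0.0981), a lipid droplet protein, did not pass. Without SAHA 1, 2 of the list were called higher.

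Of 27 other angiogenic factors, 8 passed as higher and 2 as lower (PDGFA and COL18A1), against 14% and 15.6% of all genes, and the median was 0.02. Without probe sets that may share sequence, 6 of 19 passed as higher and, by limma, 0 as lower (1 at an unadjusted p under 0.05). The calls of PDGFA and COL18A1 rest on such probe sets. PDGFA, CXCL8 and PDGFD were not measured in that setting, so its counts partly reflect genes left out. The chemokine CXCL8 rose 3.05-fold (1.61 ± 0.15, SE; limma adjusted p = 0.00231) and THBS1, a matrix protein that restrains vessel growth, 2.99-fold (1.58 ± 0.26, SE; limma adjusted p = 0.0117). The call of THBS1 ended without SAHA 1, DMSO 1 or DMSO 3 (limma adjusted p = 0.0702, 0.0540 and 0.0532), and 7 of its 7 probe sets were called higher in the fit over probe sets. The size of the THBS1 fold is uncertain, since those probe sets gave 0.48 to 3.88, their average 2.04, and the brightest without shared sequence 3.88. Among platelet-derived growth factors, PDGFA was lower by 2.46-fold (-1.30 ± 0.08, SE; limma adjusted p = 0.00102) and PDGFD higher by 2.00-fold (1.00 ± 0.06, SE; limma adjusted p = 0.00109), and PDGFC (0.51 ± 0.09, SE; limma adjusted p = 0.0144) was called higher too. Of the probe sets of PDGFA and PDGFD, 1 of 2 was called for either gene, and their averages were -0.70 and 0.50. The angiopoietins ANGPT1 (-0.14 ± 0.06, SE; limma adjusted p = 0.193) and ANGPT2 (-0.17 ± 0.11, SE; limma adjusted p = 0.321) and their receptor TEK (0.11 ± 0.09, SE; limma adjusted p = 0.447) did not pass. Without SAHA 1 or DMSO 3, 5 of the list were called higher.

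Genes with a pattern close to that of KDR or EPAS1 over the 5 arrays were found by the root mean square difference between array values centred on each gene's own mean. Closest to KDR were PSD3 (0.041), AIG1 (0.042) and MCM3AP-AS1 (0.059 on the log2 scale), with log2 folds of 1.14, 1.16 and 1.06. The call of PSD3 ended when SAHA 1 was dropped (limma adjusted p = 0.0612). Closest to EPAS1 were REEP6 (0.043), DUSP1 (0.046) and DEPTOR (0.057), with log2 folds of 1.83, 1.85 and 1.82. With probe sets averaged, MCM3AP-AS1 was 0.44, DUSP1 0.63 and DEPTOR 0.80, and PSD3 was 0.75 without shared-sequence probe sets. Likeness over 5 arrays in 2 groups mostly reflects a fold of equal size.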

How the data were processed

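The authors deposited a matrix of intensity values on a linear scale, made with RMA in R 2.12 per the submitters' processing notes, and the values (4.56 to 38935) were turned into log2 here. RMA subtracts background, equalises the quantiles of all arrays and combines probes into probe sets, and thereby takes out any change shared by all transcripts. No detection calls are given, and the number of arrays limits the precision.

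Of 54675 probe sets, 62 controls, 1801 with several genes and 11721 with none in the annotation used here were left out of the gene fit. Of the remaining 41091, symbols were updated through gene identifiers for 41037. The brightest probe set stood for each of 19775 genes, with no filter on level. Groups were taken from the sample titles. The groups were tested with limma 3.58.1 (lmFit, eBayes, no covariates) in R 4.3.3 (data.table, version 1.17.8), two-sided, with Benjamini-Hochberg adjustment over all genes, and again over 54613 probe sets. The gene fit had 3 residual and 1.62 prior degrees of freedom. The members, lists and tests were chosen with earlier results of these data known. The text names all members, up to 4 called genes per list with the largest absolute fold and no overlap between groups (or the 2 largest), the 3 nearest genes to a member, and markers. ARNT2, ARNT, EGLN1, VHL, MXI1, ADM, ANKRD37, P4HA1, P4HA2, INSIG2, BNIP3, BNIP3L, SLC2A1, COL18A1, DDIT4, LOX, BHLHE40, CA12, LDHA, ENO1, PGK1, PGF, FLT4, SEMA3F, PLXND1, PPARG, PLIN2, PDGFC, ANGPT1, ANGPT2 and TEK were named after their values were seen. Leukocyte markers were low, with 0 of 5 above the median gene, though limma called CD14 higher (0.87 ± 0.11, SE; limma adjusted p = 0.00562) and PTPRC lower (-0.34 ± 0.06, SE; limma adjusted p = 0.0176). Alternatives covered scaling, dim genes, probe sets, the variance model, weights for arrays, leaving out single arrays, a replicate block, the threshold and an unmoderated test. On simulated data for this comparison (19775 genes), 83% of 100 genes changed by 1 on the log2 scale and 43% of 100 changed by 0.5 were called with the right sign. No other genes were changed there, whereas 29.6% of genes were called here, so these rates need not hold for the real fit. Figures were drawn with matplotlib 3.10.9.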

Additional observations from a re-analysis of the deposited data

How the results depend on the processing

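In the gene fit, EPAS1 and KDR stayed called higher and NRP2 lower in all alternatives that held them (17, 16 and 17). The fit over probe sets, given below, was less steady. KDR was not held without genes below percentile 40, which left 1 member called higher. Members called lower numbered 1 to 2 when single arrays were left out, 2 with probe sets averaged and 6 after poly-A control centring, where NRP1 was -0.27, HIF1A -0.22 and PLXNA4 -0.20. ANGPTL4 was 0.033 with probe sets averaged. FLT1 was 0.032 without SAHA 1 and 0.028 without DMSO 1, in a leave-one-out range of -0.18 to 0.032. VEGFB minus VEGFA was below 0 without SAHA 2, in a range of -0.051 to 0.34.

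Member probe sets called lower numbered 4 with quantile normalization again, 4 with centring on ribosomal protein genes, 28 with poly-A centring, 1 at an adjusted p under 0.01, 1 unmoderated, and 0 to 4 when single arrays were left out (1 to 2 called higher). Under the replicate block, with numbers 1 and 2 as pairs on 4 arrays, limma called 0 higher and 0 lower. Genes called higher and lower were 1361 and 14550 with poly-A centring, 1262 and 1316 with the replicate block, 1544 and 1773 at 0.01, 1538 and 1831 unmoderated, and 1769 to 2234 and 1985 to 2797 when single arrays were left out. The block changed no call of a member gene. Nothing in the labels pairs the numbers, and the deviations of arrays 1 and 2 correlated at 0.056 between groups.

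These list medians moved by more than the replicate spread. With quantile normalization again, neuropilin partners were 0.029 and HIF regulators 0.097. With poly-A centring, the other VEGF family was 0.22, neuropilin partners -0.32, HIF regulators -0.24, HIF targets 0.00075, PPAR and ANGPTL genes -0.24 and other angiogenic factors -0.36. Without dim genes, the VEGF family was 1.05, HIF targets 0.48, PPAR genes 0.022 and angiogenic factors -0.0078. With probe sets averaged, the VEGF family was 0.75, neuropilin partners -0.019, HIF regulators 0.016, HIF targets 0.28, PPAR genes 0.017 and angiogenic factors -0.022. Without shared-sequence probe sets, the VEGF family was 1.05, neuropilin partners -0.018, HIF targets 0.56 and PPAR genes 0.23. With the replicate block, PPAR genes were 0.098 and angiogenic factors 0.066. Leaving out single arrays gave -0.032 to 0.079 for neuropilin partners, 0.075 to 0.15 for HIF regulators, 0.29 to 0.46 for HIF targets, 0.082 to 0.13 for PPAR genes and 0.026 to 0.074 for angiogenic factors. Poly-A centring lowers every fold by the same amount, which moved the all-gene median by -0.37. With the replicate block, HIF targets had 8 called higher and 1 lower, HIF regulators 2 and 1, and angiogenic factors 4 and 2. The cause of the other shifts was not tested.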

Other observations

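The short core that HIF dimers bind (ACGTG or GCGTG, either strand) was in 35 of 38 promoter windows (92.1%) of genes known to be raised by HIF, in 9 of 20 windows (45.0%) of genes that control HIF proteins, and in 48.4% of all 35116 windows. Genes with several starts have several windows. The first 2 sets had medians of 68.7% and 68.8% G or C, against 58.7% over all windows. Why the shares with a core differ was not tested, and the first set was listed as known HIF targets. A core was also in 4 of 5 windows (80.0%) of other VEGF family genes and in 6 of 9 (66.7%) of the members. Windows of the list were not split by how the genes moved.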
